A study of Mus musculus with 4 samples.

Results

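Exome DNA was sequenced from c-Kit-positive leukaemia cells of the bone marrow of moribund C57BL/6 mice labelled E2-KO, which carry an Nras-G12D allele together with knockout of Ezh2, the histone H3 lysine methyltransferase of Polycomb complexes. The 4 samples form 1 group with no control and no matched normal sample, and they are called replicates 1 to 4 in the order of listing. The labels do not say how either allele is driven or induced, how old the mice were or whether each sample is 1 animal. A p-value over samples therefore sets a mean against the scatter of these 4 libraries, and part of that scatter may be technical. The variants described here are those of chromosome 3, which carries Nras at 103.06 Mb (mm10). To be called confident, a variant needed 10 or more reads, 3 or more of them variant, and a variant share of reads (allele fraction) from 0.10 upward. It had to meet this in the lists of both callers, SpeedSeq (with quality 20 or more) and VarScan2, at 1 position with equal alleles. This rule found 3009 of the series' 51983 sites of single-nucleotide variants (SNVs) and 443 of its 7149 indel sites on chromosome 3. DNA cannot show whether the cells express Kit, so the sort was not checked.

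Nras is a small GTPase that passes growth factor signals to the MAP kinase cascade. It is active with GTP bound, and the glycine to aspartate change named by the labels slows GTP hydrolysis, which keeps the protein active. Such an allele is built in embryonic stem cells of a donor strain and bred onto a recipient strain. Donor sequence linked to a selected allele travels with it until recombination separates them, and unlinked donor sequence is fixed, kept on 1 copy or lost. Variants inherited together on 1 chromosome copy form a haplotype. A variant on 1 of the 2 copies is read about as often as the reference base, and a variant on both copies, or on the only copy left, is read in nearly all reads. SNVs from a fraction of 0.65 upward are named upper-range, those below it lower-range.

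The sequences below hold variant sites that, but for the one before Gm40158, were not confident in all 4 samples. A missing call at a single site does not place the end of a haplotype. They are 30-base stretches of promoter windows from RefSeq (GRCm38.p6, the build of mm10), written 5′ to 3′ on the strand of the gene, with the variant base in capitals as the reference has it. Each window runs from 250 bases before to 50 bases after a gene start, and positions in a substitution are counted from 1 at its 5′ end. Of 1637 windows on chromosome 3, 16 (0.977%) held a confident SNV, and the reference base equalled the RefSeq letter at all 22 positions compared, overlapping windows included.
Bbs12, C114G, chr3:37312403-37312432, plus strand: ctcccctccgcggcCcgcgtttgctcccga
Bbs12, A191G, chr3:37312480-37312509, plus strand: ttccgtgattgacgAccattgcgcccaatg
C230034O21Rik, A34C, chr3:38887163-38887192, minus strand: tggctttcactgagAcgataggtaaagcca
Fcrl5, C192T, chr3:87435709-87435738, plus strand: ctttgtctgtagggCaggaaactaattaac
Fcrl5, C217T, chr3:87435734-87435763, plus strand: ttaacaattaaatgCggctacttctacttc
Sprr4, G180A, chr3:92500549-92500578, minus strand: atactgcttgatgaGacaggggggaggata
Gm40158, A134G, chr3:142569229-142569258, minus strand: tcactcccttcctcAgcacttgctggtagc
Mcoln3, A288C, chr3:146121811-146121840, plus strand: ctggttagcagctgcagAgctcgccaagat

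At C114G before Bbs12, a gene of a chaperonin-like protein of cilia, the variant made up 25 of 54 reads in replicate 2, 29 of 63 in replicate 3 and 44 of 45 in replicate 4, and replicate 1 had no call. At A191G, 60 bases before the same gene, it made up 9 of 17 reads in replicate 2 and 14 of 14 in replicate 4, while replicate 3 had a call that missed the rule. At A34C before C230034O21Rik, replicate 2 had 9 of 24 variant reads and replicate 4 had 32 of 32, without a call in replicates 1 and 3. These sites differ by carrier: replicate 3 is among the carriers at the Bbs12 window and is not at the next. At C217T before Fcrl5, a Fc receptor-like gene of B cells, replicate 1 had 9 of 25 variant reads and replicate 2 had 18 of 35, and replicates 3 and 4 had no call. At C192T only replicate 2 met the rule, with 7 of 14 reads. At G180A before Sprr4, an epidermal envelope gene, only replicate 1 had the variant, in 6 of 11 reads. At A134G before Gm40158 all 4 samples had it, with 21 of 55, 15 of 30, 18 of 43 and 26 of 44 reads in replicates 1 to 4. At A288C of Mcoln3, a lysosomal cation channel gene, replicates 1 to 3 had 36 of 64, 34 of 61 and 21 of 43 reads, and replicate 4 had no call.

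The promoter window of Nras itself held no call of either caller at any quality in any sample. Variant positions alone are listed, so whether reads covered this window is not known. No window between those of Tdpoz7, in the central part of the chromosome, and Gm40158 held a confident SNV, and this span includes Nras. With 16 of 1637 windows holding one, a window without a confident SNV is the common case and does not set Nras apart.

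Chromosome 3 held 1717, 2167, 1278 and 1303 confident SNVs in replicates 1 to 4 (mean 1616 ± 419, SD, n = 4) and 196, 290, 153 and 187 indels (mean 206.5 ± 58.7, SD, n = 4). Their median depth was 60, 47, 62 and 56 reads, which limits a single fraction to a wide interval, so medians over many sites are given below. Most calls of the SpeedSeq lists are shallower: 78.1%, 70.1%, 46.7% and 58.9% of the SNVs that they list on this chromosome had fewer than 10 reads and were not used. Per Mb, chromosome 3 had 10.7, 13.6, 7.99 and 8.15 SNVs beside 13.9, 12.9, 12.8 and 8.69 on the other autosomes. Replicate 2 alone had the higher density on chromosome 3. The mean log2 ratio of -0.27 ± 0.33 (SD, n = 4) was within the spread between samples by a two-sided exact permutation test that flips the signs of the 4 differences (p = 0.25, adjusted p = 0.50 over 4 tests). With 4 samples the smallest p of this test is 0.125, so no test over samples here can pass 0.05.

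The SNVs lay in dense stretches separated by long stretches with almost none. In 2 Mb bins with at least 10 SNVs, called dense, replicates 1 to 4 had 21, 25, 16 and 15 of the 80 bins of chromosome 3 (26.3%, 31.3%, 20% and 18.8%). Over the genome's 1325 bins the shares were 21.5%, 20.2%, 20.6% and 16.9%, so those of replicates 3 and 4 were near the background and those of replicates 1 and 2 above it. The dense bins held 95.5% to 97.4% of each sample's SNVs of the chromosome. Runs of at least 10 SNV sites with no gap over 1 Mb formed 17 blocks, which covered 42.7 Mb, or 26.7% of the chromosome, and held 2955 of the 3009 sites (98.2%). In 5 of these blocks the median mapping quality, which says how uniquely the reads align, was under 50, and over the chromosome 530 sites (17.6%) were under it. Such sites can come from reads of close copies. The tracts below leave them out, while counts and shares over the whole chromosome include them.

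**Figure D1:**
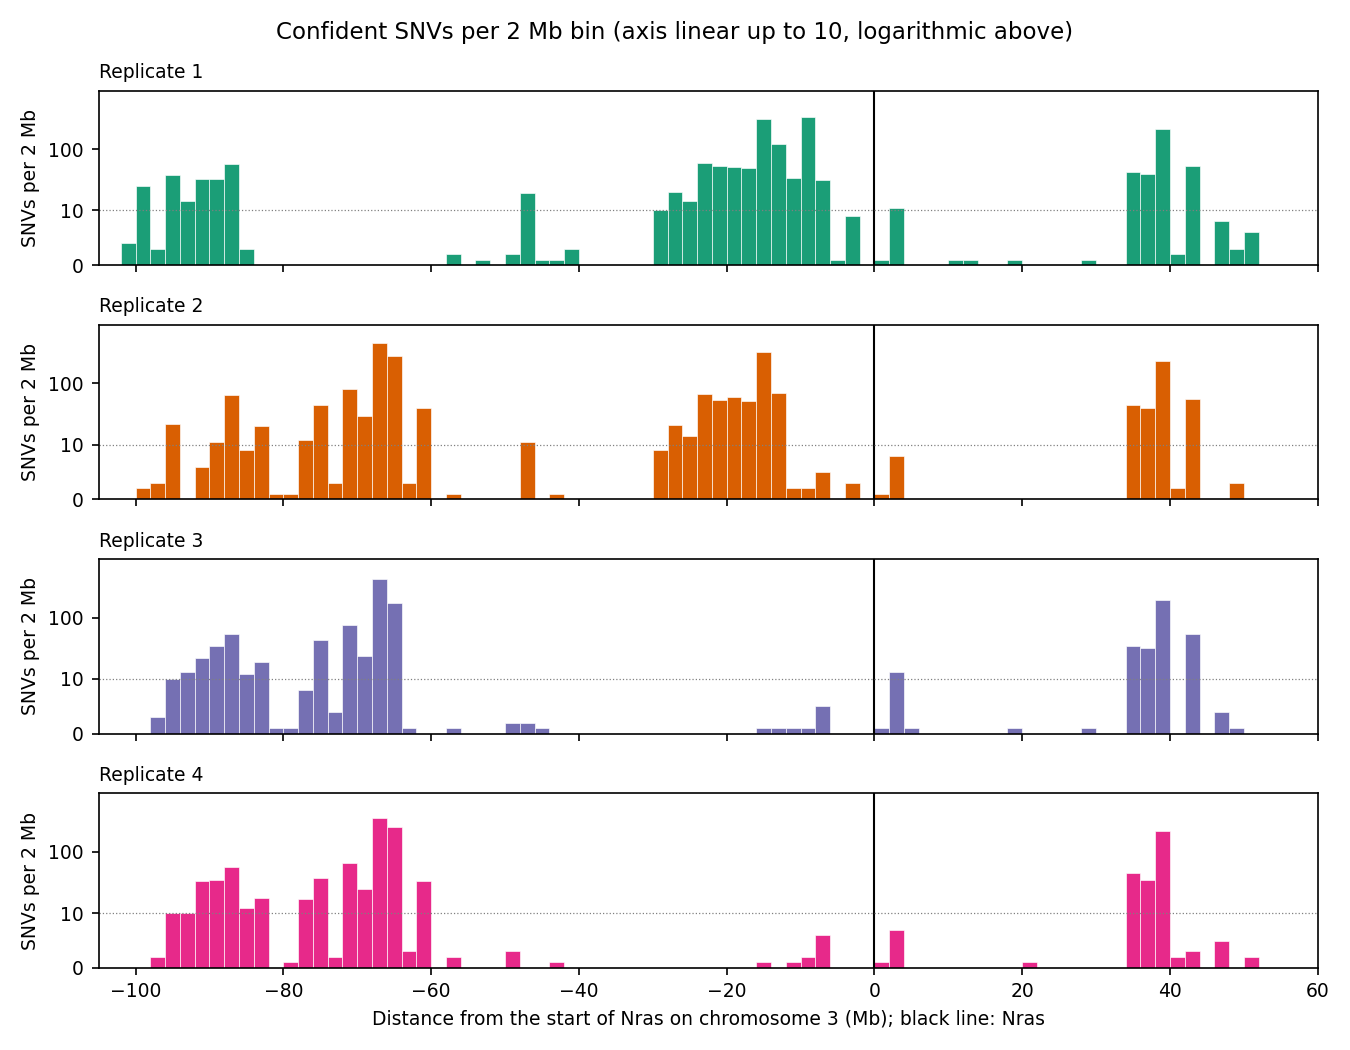
Number of confident SNVs per 2 Mb bin (vertical axis, linear up to 10 and logarithmic above; the dotted line marks 10) against the distance from the start of Nras in Mb, one panel per replicate, with Nras as a black line. The bins of the central tract, left of Nras, are filled in replicate 1 and over most of their length in replicate 2 and nearly empty in replicates 3 and 4. Most of those of the proximal tract, further left, are filled in replicates 2, 3 and 4 and empty in replicate 1.

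With sites of mapping quality 50 or more alone, 2457 of 2478 sites (99.2%, Nras left out) fell into 3 tracts, named here by their place. A tract is a run of sites with at least 4 others within 1 Mb, joined over gaps of up to 6 Mb. This definition was made after the data were seen, so the tracts describe the data and were not tested themselves. The proximal tract runs from 9.44 to 42.4 Mb (1106 sites), the central tract from 74.7 to 95.8 Mb (943 sites) and the distal tract from 138 to 147 Mb (403 sites). Another 5 sites within the central tract were upper-range in all 4 samples. They are part of the 2457 and are left out of the count per tract and of the values below. Nras lies 7.24 Mb above the central tract and 34.8 Mb below the distal tract. The carriers differ between tracts: all 4 samples carried part of the proximal tract, replicates 1 and 2 the central tract, and all 4 the distal tract.

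**Figure D2:**
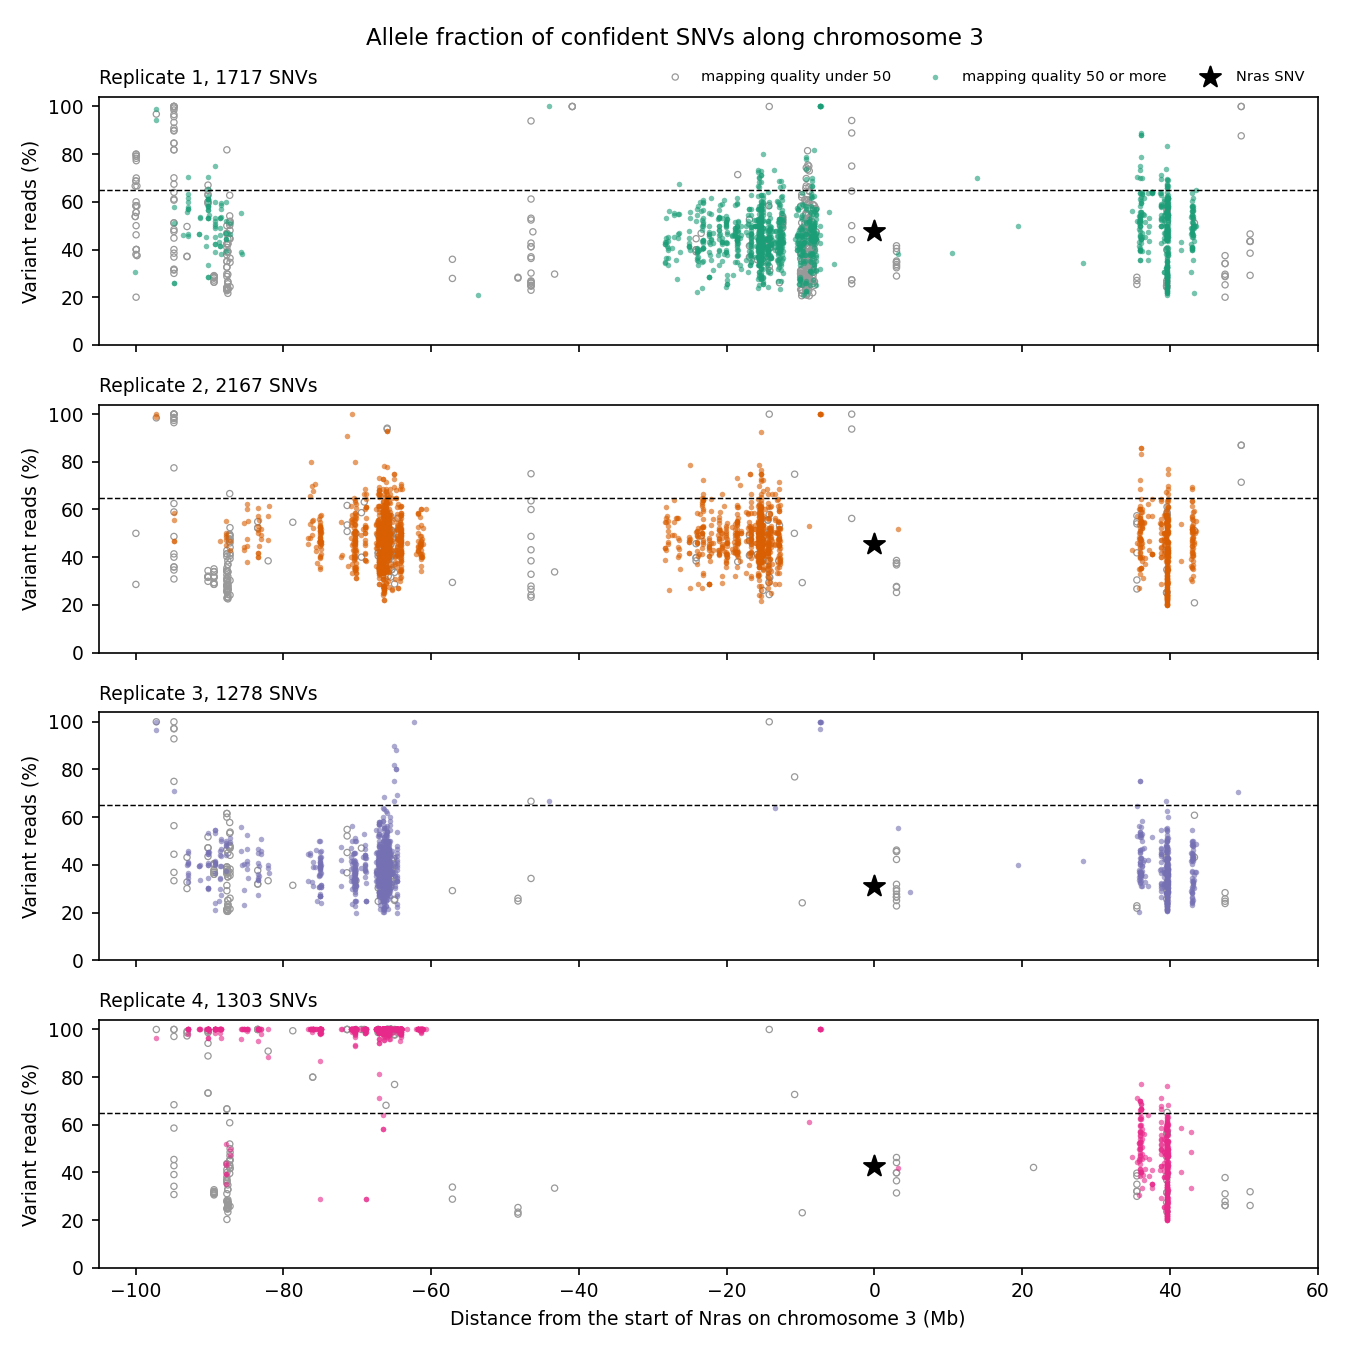
Allele fraction of each confident SNV as a percentage of reads (vertical axis) against its distance from the start of Nras in Mb, one panel per replicate. Filled points have a mapping quality of 50 or more, open grey points a lower one, the star is the Nras SNV and the dashed line marks 65%. Left of -60 Mb most SNVs lie near 100% in replicate 4 and under the dashed line in replicates 2 and 3, and the stretch around the star is nearly empty in all 4 panels.

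The proximal tract was carried in the upper range by replicate 4 and in the lower range by the others. Over 71, 937, 808 and 836 SNVs in replicates 1 to 4, the median fractions were 0.531, 0.478, 0.385 and 1.0. In replicate 4, 98.3% of the tract's SNVs were upper-range, and SpeedSeq gave 98.1% of them the genotype 1/1, against 5.63%, 5.02% and 1.11% upper-range in replicates 1 to 3. The 4 samples also carried different lengths of the tract. The SNVs of replicate 1 ran from 9.44 to 17.4 Mb, and none of the 1025 tract sites beyond was confident in it, with 2 listed by a caller. Those of replicate 2 began there: of the same 1025 sites it carried 928, the first at 17.8 Mb, and it reached the end of the tract at 42.4 Mb. Those of replicate 3 ran from 10 to 38.5 Mb. Of the 140 tract sites beyond, 1 was confident in it, a lone site at 40.7 Mb in Intu with a fraction of 1.0, and the other 139 were listed by neither caller. Replicate 4 carried the tract from 10.1 to 42.4 Mb. Replicates 1 and 2 thus met in the proximal tract with hardly any shared site, although each shared most sites with replicates 3 and 4.

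The sites that bracket the change from carried to not carried were 8.53 to 389 kb apart at run ends. At run starts they were 76.8 to 699 kb apart. For replicate 1 the last carried and the first missing site are 17396092 and 17785505 (389 kb apart), the stretch in which replicate 2 begins, and no protein-coding gene overlaps it. For replicate 3 the corresponding sites are 38483222 and 38558117 (74.9 kb apart), a stretch that overlaps Ankrd50. The distances depend on where captured exons with variants lie, so they bound the change and do not place it.

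An exception lay near the start of the tract. Replicate 2 had 9 sites of mapping quality 50 or more between 14.5 and 15.8 Mb with a median of 47.2%, apart from the rest of its run, and 8 of these were shared with replicate 1. In replicate 4, 8 of the 9 were lower-range, although its neighbouring sites were upper-range. The same stretch of the chromosome holds Sirpb1 genes, a family of signal-regulatory proteins with close copies. In Sirpb1a, 25 sites with a mapping quality of 21.9 to 47.6 had medians of 0.338, 0.318, 0.375 and 0.365 in replicates 1 to 4, lower-range in every sample. Ralyl, an RNA-binding protein gene nearby, held both kinds: its 16 sites of mapping quality 60 were absent from replicate 2 and had medians of 0.50, 0.409 and 1.0 in replicates 1, 3 and 4. Its 10 sites of mapping quality 25.1 to 29.6 were in all 4 samples at medians of 0.285, 0.318, 0.377 and 0.313. The 2 kinds of sites thus gave different carriers within 1 gene, and whether reads of copies make up the second kind was not tested.

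The genes with most SNVs in the proximal tract followed its runs. The gene 4932438A13Rik held 162 sites, with 154, 141 and 117 SNVs in replicates 2, 3 and 4 at medians of 0.498, 0.387 and 1.0. Bbs7, a subunit of the BBSome, a complex of ciliary transport, held 82 sites, with 75, 67 and 61 SNVs in replicates 2, 3 and 4 at medians of 0.412, 0.333 and 1.0. Fat4, a large atypical cadherin, lies past the end of the run of replicate 3 and held 77 SNVs in replicate 2 (0.473) and 74 in replicate 4 (1.0), with none in replicates 1 and 3. Usp13, a deubiquitinase, had 17, 12 and 12 SNVs in replicates 2, 3 and 4 at 0.429, 0.333 and 1.0. Actl6a, an actin-related subunit of BAF chromatin remodelling complexes, had 16, 15 and 13 SNVs at 0.456, 0.336 and 1.0, and its neighbour Mrpl47, of the mitochondrial ribosome, had 15, 15 and 10 at 0.480, 0.351 and 1.0. Each of these genes was free of confident SNVs in replicate 1.

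The central tract, the nearest to Nras, was carried by replicates 1 and 2 alone. Over 864 and 644 SNVs the median fractions of replicates 1 and 2 were 0.444 and 0.474, with 3.24% and 4.35% upper-range, while replicates 3 and 4 had 1 and 2 SNVs at its sites. Replicate 1 carried it to 95.7 Mb. Replicate 2 stopped at 90.2 Mb: its last carried site is 90225562, the first missing one 90234096, 8.53 kb further. Of the 261 tract sites beyond, 1 was confident in it, a lone site at 94.3 Mb (fraction 0.530) that replicates 1 and 4 also had. The bracket of 8.53 kb was the closest of the run ends, and it overlaps Jtb and Rab13. Up to that point replicates 1 and 2 shared 566 of the 681 sites found in either (83.1%), and their fractions at shared sites differed by a median of -0.024. Of all tract sites, 57.1% were lower-range in replicates 1 and 2 with no listed call in replicates 3 and 4, and 27.9% were lower-range in replicate 1 alone.

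The genes with most sites in the central tract showed the same split. Arhgef11, a guanine nucleotide exchange factor, held 48 SNVs in replicate 1 (median 0.466) and 54 in replicate 2 (0.485), and Arhgef2, of the same class, held 32 (0.409) and 40 (0.438). Pear1, a platelet surface receptor, held 33 (0.441) and 34 (0.459). None of these 3 genes had a confident SNV in replicate 3 or 4. Past the end of replicate 2, Pogz, a zinc finger protein that binds heterochromatin protein 1, held 20 SNVs in replicate 1 (0.490) and none in the others. Tdpoz8 and Flg2, of the filaggrin family, held 24 and 20 SNVs in replicate 1 alone, at medians of 0.379 and 0.396. The median mapping qualities of their sites were 46.5 and 37.7.

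The distal tract was lower-range in all 4 samples. Its medians were 0.50, 0.457, 0.364 and 0.450 over 331, 349, 305 and 284 SNVs in replicates 1 to 4, and 6.95%, 3.72%, 0.984% and 6.69% of these were upper-range. Replicate 4, upper-range in the proximal tract, thus stood with the others here. Pairs of samples shared 74.3% to 80.4% of the sites found in either over their common stretch. Replicates 1 to 3 reached the end of the tract at 147 Mb, whereas the last run site of replicate 4 lay at 145.9 Mb and it carried none of the 55 tract sites beyond. That end rests on few sites: with a depth of at least 20 or a quality of at least 100 the last site of replicate 4 was at 142.8 Mb. The block from 145.9 Mb held 3 of its SNVs beside 54, 56 and 54 in replicates 1 to 3.

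Gbp2b led the distal tract with 129 sites. It belongs to the guanylate-binding proteins, interferon-induced GTPases with near-identical neighbours, and its medians of 0.321, 0.292, 0.285 and 0.286 in replicates 1 to 4 were under those of the tract in every sample. Its SNVs had a mapping quality of 60. Of the 5 Gbp genes matched, all held SNVs, beside 25.2% of all protein-coding genes of the chromosome. These genes lie together in the same block of SNVs, so they are not separate hits and do not set the family apart. Gbp2 had medians of 0.461, 0.440, 0.368 and 0.400, and Pkn2, a protein kinase gene beside the cluster, had 0.546, 0.515, 0.383 and 0.478. The counts in Gbp2b are uncertain to the extent that reads of copies were placed there, which was not tested.

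Indels, which come from separate calls, gave the same ranges. In the proximal tract their median fraction was 0.481 (8 indels), 0.459 (112), 0.364 (87) and 0.947 (119) in replicates 1 to 4, with 103 of the 119 of replicate 4 in the upper range beside 0, 5 and 0 in replicates 1 to 3. In the central tract it was 0.429 (116) in replicate 1 and 0.466 (93) in replicate 2, and in the distal tract 0.440, 0.419, 0.372 and 0.432 over 26 to 34 indels per sample. Within blocks with at least 3 indels and 10 SNVs, the difference of the indel median from the SNV median, taken as the median over blocks in each sample, was -1.19 percentage points ± 1.81 on average (SD, n = 4). It was within the spread between samples by the same exact permutation test (p = 0.25, adjusted p = 0.50).

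**Figure D3:**
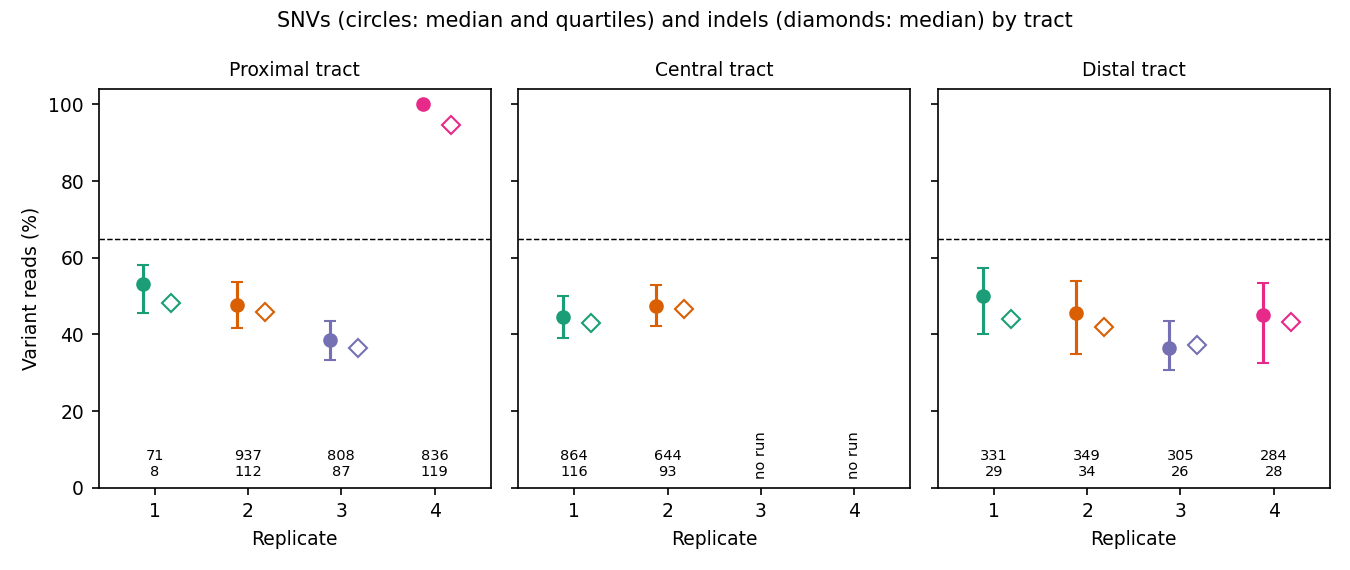
Median allele fraction as a percentage of reads in each tract (panels) and replicate (horizontal axis). Circles are SNVs with bars from the lower to the upper quartile, open diamonds are indels, the upper number below each is the count of SNVs, the lower one that of indels, and the dashed line marks 65%. In the proximal tract replicate 4 lies at a median fraction of 1.0 for SNVs and 0.947 for indels, and every other median lies under the dashed line.

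The stretch that holds Nras had few SNVs in every sample. Between the central and distal tracts lie 42.1 Mb with 321 protein-coding genes, 32.7% of the 983 on the chromosome. Apart from the Nras SNV, replicates 1 to 4 had 26, 11, 16 and 8 confident SNVs in it, of which 7, 1, 4 and 1 had a mapping quality of 50 or more. Of the 31 sites in all, 21 fell into clusters of at most 216 bases. The first, of 9 sites with mapping qualities of 21.4 to 31.0, lies in Spag17, a gene of the sperm flagellum, and the second, of 12 sites with mapping qualities of 20.2 to 36.6, lies at 106 Mb. Outside these clusters and Nras, 8 sites had a mapping quality of 50 or more, 5 of them in 1 sample and 1 in all 4. The latter lies in Chil4, a chitinase-like gene, with fractions of 0.382, 0.520, 0.555 and 0.419. No run of SNVs lay next to the Nras allele in any sample. The files list variant positions alone, so the depth at unlisted positions is not known. The stretch also held 11, 16, 10 and 15 confident indels in replicates 1 to 4, which show reads at their own positions only. Of the SNVs that SpeedSeq listed there (650, 309, 175 and 175), 618, 291, 156 and 156 had fewer than 10 reads.

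The nearest confident SNVs on both sides of the Nras gene lay 6.06, 6.06, 10.2 and 10.2 Mb apart in replicates 1 to 4 (mean 8.14 ± 2.40 Mb, SD, n = 4). Below the gene they belong to the Spag17 cluster in replicates 1 and 2. In replicates 3 and 4 the nearest is 95821438, a site where all reads of all 4 samples were variant. Above the gene they belong to the cluster at 106 Mb. A 10 Mb window centred on Nras held 14.0 ± 5.48 SNVs (SD, n = 4), where the fixed 10 Mb windows of the chromosome held 0 to 849. A 20 Mb window held 384, 19, 21 and 16 in replicates 1 to 4, as it takes in the end of the central tract, which replicate 1 alone carried. The gap is not particular to Nras on this chromosome. Between the proximal and central tracts another 32.3 Mb with 118 genes held 33 sites, 2 of them with a mapping quality of 50 or more, and the longest gap between successive SNVs was 28.5 to 31.7 Mb in the 4 samples.

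Among the 24 protein-coding genes within 1 Mb of Nras, Nras alone had a confident SNV. Indels were called in 2 of them, Sycp1, of the synaptonemal complex, in replicate 1 and Hipk1, a nuclear kinase, in replicate 4. Calls of any quality were listed in 17 of the 24. In Ampd1, of muscle AMP deaminase, no sample had a confident variant. Over the chromosome, 248 of 983 protein-coding genes (25.2%) held a confident SNV in some sample, beside 17.7% of all protein-coding genes in the genome.

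The Nras SNV itself lies at 103058956, 671 bases into the gene body, and changes G to A. Replicate 1 had 107 variant reads of 224 (47.8%, exact Clopper-Pearson 95% interval 41.1 to 54.5) and replicate 2 had 69 of 152 (45.4%, 37.3 to 53.7). Replicate 3 had 65 of 209 (31.1%, 24.9 to 37.9) and replicate 4 had 91 of 213 (42.7%, 36.0 to 49.7). These intervals cover counting error only. Replicate 3 was the lowest: by Fisher's exact test on reads replicates 1 and 2 exceeded it by 16.7 and 14.3 percentage points (adjusted p = 0.0025 and 0.018 over 6 pairs), and its difference from replicate 4 was -11.6 points (adjusted p = 0.031). The other 3 pairs differed by 2.37 to 5.04 points (exact test, adjusted p = 0.44 to 0.67). These tests compare single libraries and take reads as independent molecules, so their p-values too cover counting error only. Both strands carried the variant, with 56 and 51, 41 and 28, 37 and 28, and 52 and 39 forward and reverse reads. The site was read 3.84 ± 0.416 times (SD, n = 4) as deeply as the median confident SNV of its sample.

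The Nras fraction was set beside the lower-range SNVs of the same chromosome and sample at a depth of at least 30. Their medians were 43.6%, 46.3%, 37.1% and 38.5% in replicates 1 to 4, from 1210, 1468, 961 and 298 SNVs. The differences of Nras from them were 4.14, -0.938, -6.04 and 4.27 points, with a mean of 0.358 ± 4.91 (SD, n = 4; exact permutation test by sign flips, p = 1.0, adjusted p = 1.0). This mean changed sign under 3 other settings of the call rule and without replicate 1 or 4. Within samples, Fisher's exact test of the Nras reads against the pooled reads of these SNVs gave adjusted p = 0.098, 0.62, 0.14 and 0.14, with the same limit. These SNVs include sites of low mapping quality. With those of mapping quality 50 or more alone (892, 1304, 833 and 206 SNVs), the differences were 2.51, -1.27, -6.40 and 0.327 points. Their mean was -1.21 ± 3.79 (SD, n = 4; exact permutation test by sign flips, p = 0.75), so the mean changed sign here too. With the distal tract alone, which all 4 samples carried, the differences were -0.859, 1.28, -4.44 and -0.134 points (mean -1.04 ± 2.43, SD, n = 4; exact permutation test by sign flips, p = 0.62). Neither of the last permutation tests was among the 4 that were adjusted, and the distal tract was defined after the data were seen. The differences of replicates 1 and 4 were smaller against the distal tract than against the whole chromosome, and that of replicate 3 remained the largest. No difference passed its test, which does not show that the fractions are equal. The distal tract medians at this depth were 48.6%, 44.1%, 35.5% and 42.9%, with replicate 3 the lowest, as at Nras.

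**Figure D4:**
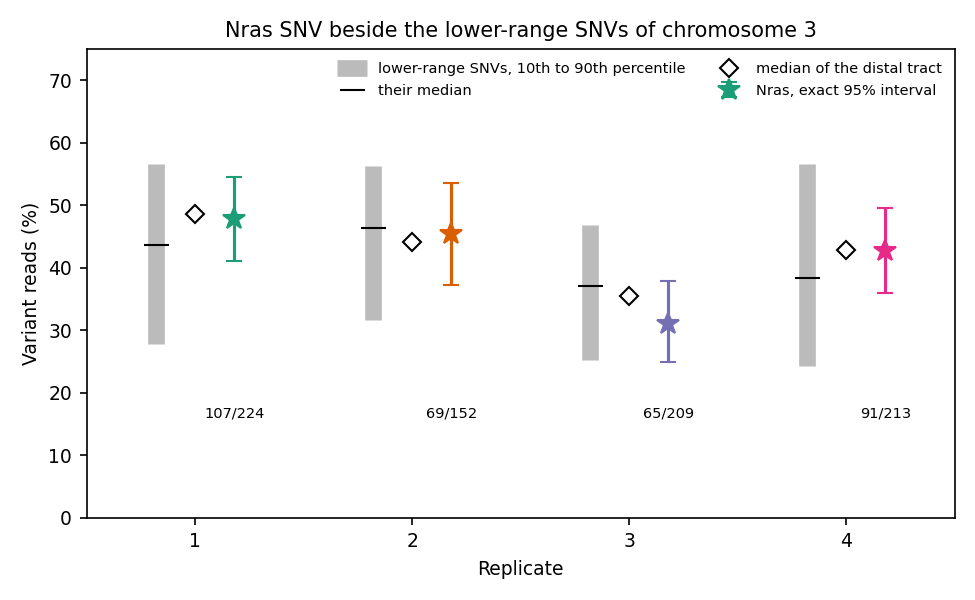
Percentage of variant reads at the Nras SNV (stars, exact 95% interval, with variant reads over depth printed below) in each replicate, beside the lower-range SNVs of chromosome 3 at a depth of at least 30 (grey bar from the 10th to the 90th percentile, with the median as a line) and the median of the distal tract (diamond). Each star lies within the grey bar of its sample, and replicate 3 has the lowest star at 31.1%.

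Over the whole chromosome, the upper-range share was 6.93%, 5.35% and 2.50% in replicates 1 to 3 and 70.5% in replicate 4 (exact Clopper-Pearson 95% interval 67.9 to 72.9). The other autosomes had 25.5%, 25.6%, 28.6% and 51.7%. Replicate 4 alone had the higher share on chromosome 3. The mean difference was -11.5 points ± 20.4 (SD, n = 4; exact permutation test by sign flips, p = 0.38, adjusted p = 0.50), and without replicate 4 the mean was -21.6 points. Of the 31 sites in the Nras stretch none was upper-range in replicates 3 and 4.

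At sites that were upper-range in replicate 4 and lower-range in another sample, the depth was compared after division by the sample's median depth. The depth of replicate 4 was 0.792 times that of replicate 1 (77 sites), 0.852 times that of replicate 2 (730 sites) and 0.870 times that of replicate 3 (663 sites). At sites of the same kind on the other autosomes the ratios were 0.886 (4182 sites), 0.899 (4001 sites) and 0.859 (2885 sites). Chromosome 3 was thus lower against replicates 1 and 2 and slightly higher against replicate 3. These are medians over sites that share libraries and are given without a test.

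Fewer sites were shared by all samples than on the other autosomes. Of the 3009 sites 9.57% were confident in all 4 samples, beside 19.0% of 48307 elsewhere, while 778 were in 3, 1036 in 2 and 907 in 1. Replicates 3 and 4 shared 60.9% of the sites found in either, and replicates 1 and 2 shared 36.2%. On the other autosomes the order was the reverse, with 38.1% and 58.8%. Replicate 1 shared 17.5% with replicate 3 and 16.3% with replicate 4. The commonest patterns were lower-range in replicates 1 and 2 alone (569 sites), lower-range in replicates 2 and 3 with upper-range in replicate 4 (545), lower-range in replicate 1 alone (464) and lower-range in all 4 (238). Of the first pattern 538 sites were sites of the central tract, and of the second 510 were sites of the proximal tract. Of the third 263 were sites of the central tract. The rest were not counted there, but need not lie elsewhere, as sites of mapping quality under 50 within its bounds are left out.

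The shares for replicate 4 are lowered by the calling. In the proximal tract 99.0% of the sites within its run were listed by a caller, but 75.7% met the rule, against 95.6% and 89.2% in replicate 2. Between 17.8 and 38.5 Mb, 160 sites were confident in replicates 2 and 3 and not in replicate 4. SpeedSeq listed 157 of them in replicate 4, all with the genotype 1/1 and at 95% variant reads or more, whereas VarScan2 listed 12. Of 147 that SpeedSeq alone listed, 143 had at least 90% of the variant reads on 1 strand. Over all chromosomes, VarScan2 listed 23944 SNVs without reference reads, and 4356 of these had over 90% on 1 strand. Why VarScan2 lacks the sites of replicate 4 was not tested.

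Genes with a role in blood and in RAS signalling were looked up by lists. Of 35 haematopoietic and leukaemia regulators 9 (25.7%) held a confident SNV, and of 21 genes of RAS and growth factor signalling 6 (28.6%) did, both near the 25.2% of all protein-coding genes of the chromosome. The median number of sites per gene with a SNV was 5 and 4, beside 4 over the chromosome. Whether these SNVs change a protein was not determined, as the reference used here has no exons.

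In the proximal tract, the cytokine genes Il2 and Il21 had 6 and 15 SNVs in replicate 2, 6 and 13 in replicate 3, and 4 and 12 in replicate 4, with medians of 0.555 and 0.477, then 0.402 and 0.397, then 1.0 for both. Ccna2, which encodes cyclin A2, had 14, 16 and 14 SNVs in the same samples, at 0.474, 0.427 and 1.0. Fgf2, a growth factor, had 12, 11 and 9 SNVs at 0.478, 0.377 and 1.0, Spry1, an inhibitor of receptor tyrosine kinase signalling, had 3 in each at 0.421, 0.390 and 1.0, and Gnb4, a G protein beta subunit, had 10, 10 and 9 at 0.441, 0.344 and 1.0. None of these 6 genes had a confident SNV in replicate 1, and each had an upper-range median in replicate 4 alone.

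In the central tract, Tlr2, a receptor for bacterial lipoproteins, had 2 SNVs in each of replicates 1 and 2 (medians 0.460 and 0.480), Fbxw7, a ubiquitin ligase subunit that targets Myc and Notch, 5 in each (0.448 and 0.50), and Il6ra, the interleukin 6 receptor, 4 in each (0.446 and 0.431). Rit1, a RAS-related GTPase, had 2 in each (0.471 and 0.491) and Dclk2, a doublecortin-like kinase, 5 in each (0.50 and 0.519). Lmna, which encodes lamins A and C, had 1 SNV in replicate 1 (0.417). Replicates 3 and 4 had no confident SNV in these genes. In the distal tract, Rap1gds1, which stimulates nucleotide exchange on small GTPases, had 32, 29, 26 and 30 SNVs at 0.514, 0.50, 0.413 and 0.533. Outside the tracts, Fubp1, a regulator of Myc, had 1 SNV in replicate 3 (0.706). Dbt, the 1 branched-chain amino acid enzyme on the list, had none.

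Of 102 matched genes in clustered families, 26 held a SNV (25.5%), near the 25.2% of all protein-coding genes of the chromosome. The 3 Fcrl genes had 70 SNVs in replicate 1 and 76 in replicate 2 and none in the others. Past the end of replicate 2, the Lce genes of the cornified envelope had 23 SNVs in 5 of 21 genes and the S100a genes of calcium-binding proteins had 12 in 7 of 15, all in replicate 1. Other families of the same stretch were mixed. Flg, which encodes filaggrin, had 10 SNVs in replicate 1 (median 0.459) and 1 in each of the others (0.293, 0.241 and 0.231 in replicates 2 to 4). Sprr2a2, an epidermal envelope gene, had 1 SNV in each of replicates 2, 3 and 4 (0.748, 0.769 and 0.727) and none in replicate 1, and Sprr2a1 had 1 in replicate 2 alone (0.50), at mapping qualities of 25.2 and 20.3. The Adh, Gstm and Clca families, of alcohol dehydrogenases, glutathione transferases and chloride channel regulators, held none in any sample.

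A small set of sites was upper-range in every sample. There were 11, of which 4 lie in gene bodies, namely 2 each in Ecm1, of the extracellular matrix, and Tars2, a mitochondrial threonyl-tRNA synthetase. Those in Ecm1 were read in all reads of all 4 samples, replicates 3 and 4 included, which otherwise had next to no SNV in the central tract. A further 5 of the 11 lie below 9 Mb.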

How the data were processed

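Exomes were captured with an Agilent SureSelect mouse kit, per the labels' protocols. The authors' SpeedSeq files come from freeBayes 0.9.21 on mm10, with 1 alignment file for each sample; they hold a Phred-scaled quality score and whole read counts per the file headers. The authors' VarScan2 tables of SNVs and indels hold read counts and a variant frequency in percent per the file headers, and p-values deposited with them that were not used. No source used here names the aligner or says how duplicates were treated. Tested on the files, VarScan2 lists no coverage under 8, fewer than 3 variant reads or frequency under 20%, so lower fractions are not seen. Allele fractions are SpeedSeq variant reads over depth.

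Substitutions of several bases were split into SNVs. Genes are RefSeq bodies on GRCm38.p6, and all 57 list symbols matched. Densities, upper-range shares, Nras fractions and indel fractions were tested by exact sign-flip permutation over the 4 samples and Nras reads by Fisher's exact test, with Benjamini-Hochberg adjustment. The computation was tested on simulated data (Python 3.11.15, pandas 2.3.3, scipy 1.17.1). Members, lists, tracts and the stretches shown were chosen with earlier results of these data known. Named genes are Nras and its neighbours within 1 Mb with a variant, the 3 genes with most SNV sites in each of the 6 largest blocks, and list genes with a SNV; Chil4, Ampd1, Ecm1 and Tars2 were added after their values were seen.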

Additional observations from a re-analysis of the deposited data

Results flagged for a closer look

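In groups of 4 samples, 3 of 11 quantities had 1 sample far from the others. Chance gives about 1 in 20 for a single quantity, but several of the 11 are related, so their count is not a test. The upper-range share of chromosome 3 SNVs was 70.5% in replicate 4, beside 2.50% to 6.93% in the others. The upper-range share of its indels was 63.1% in replicate 4, beside 4.83% to 9.69%. Both come from the proximal tract of that sample. The share of transitions among chromosome 3 SNVs was 67.9% in replicate 1, beside 71.0% to 71.2% in the others.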

How the results depend on the processing

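Over the settings tried, 108 of 129 values kept their direction or size. This rule is loose: a tested mean counted as kept if its sign stayed, whatever its size. The mean difference between Nras and the lower-range SNVs thus counted as kept at 2.52 points with VarScan2 alone. The mean difference between Nras and the lower-range SNVs, 0.358 points, changed sign to -0.196 with a quality of at least 100, -3.17 without calls within 100 bp of another and -0.506 without substitutions of several bases, the last chosen after seeing the data. Leaving out 1 replicate gave -0.946 to 2.49. With VarScan2 alone the mean was 343.5 indels, 25.3 SNVs in the window around Nras and 5.56 Mb between its flanking SNVs. Without calls within 100 bp of another there were 579 SNVs, 5.34% of sites in all samples, 2.25 SNVs in the window and 11 blocks. Windows of 5 and 20 Mb held 1.0 and 110 ± 183 SNVs (SD, n = 4), the latter 18.7 ± 2.52 (n = 3) without replicate 1, chosen after seeing the data. Gaps of at most 0.5 and 2 Mb gave 26 and 9 blocks. The share of sites in all samples was 36.1% without replicate 1. It was 12.7%, 11.3% and 12.3% without replicates 2, 3 and 4, although equally many samples must agree in each case. The relative depth at mixed sites, -0.22 (log2), was -0.23 to -0.09 with 1 replicate left out, and -0.093 without replicate 4. The cause of these changes was not tested. Tract medians moved by at most 0.042 over the alternatives for tracts, all chosen after seeing the data. Run ends moved by up to 3.13 Mb and run starts by up to 0.821 Mb. The bounds of the tracts were kept, so their definition by neighbours and gaps was not varied. No paired analysis was possible because there is 1 group. Depth limits single sites, and variants under 20% are not listed.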
